A study of Mus musculus with 2 samples.

Results

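The guidance genes described here are the ephrins, the Eph receptors, the semaphorins, the plexins, the Slits and the Robo receptors. They were chosen by gene symbol alone, which gave 58 of the 22740 genes listed. RNA was sequenced from the whole uterus of 2 C57BL/6 mice at day 4 of pregnancy, when the tissue prepares for the embryo to attach. Each animal gave 1 library, titled WT1 and WT2, here called uterus 1 and uterus 2. There is 1 group, with no second genotype, treatment or time, so the data give the level of each gene and the difference between 2 animals. Whole uterus holds epithelium, stroma, smooth muscle, vessels and immune cells together, and fewer cells of a type and less RNA per cell cannot be told apart.

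These families are known for steering growing axons, and the same molecules position cells and shape vessels and epithelia in other tissues. Ephrins sit on the surface of one cell and bind Eph receptor tyrosine kinases on its neighbour. Ephrin-A proteins are held by a lipid anchor and mainly bind EphA receptors, while ephrin-B proteins cross the membrane and mainly bind EphB receptors. Semaphorins signal through plexins, and the secreted class 3 semaphorins mostly need a neuropilin as co-receptor. Slits are large secreted proteins that bind Robo receptors.

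Values are RPKM, reads scaled to transcript length and library size by the authors, so levels of different genes can be set side by side. The reads behind each value were recovered from the steps between low values, and summed to 3873518 in uterus 1 and 4304380 in uterus 2 over all genes. As a check of the tissue label, all 6 uterine genes, 7 of 7 epithelial, 7 of 7 stromal, 7 of 7 smooth muscle and 7 of 7 endothelial markers were at 1 RPKM or more in both libraries. Of 7 neuronal markers 1 reached that level, of 7 Schwann cell and glial markers 2, of 7 leukocyte markers 5, of 4 lymphatic markers 2 and of 5 fat markers 0. Of 7 ovary and oviduct markers, 4 did, and their summed level was 20.3 RPKM in uterus 1 and 24.6 in uterus 2. Their part in the levels below was not tested. Rpl26, a ribosomal protein gene that cells in general use, was listed at 0 in both libraries, so a listed 0 is not read as absence.

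Most of the guidance genes were expressed. At 1 RPKM or more in both uteri there were 46 of 58 (79.3%), against 58.4% of all genes and 61.6% of genes with a protein-coding (NM_) identifier, which all 58 carry. Few were high: 15 of 58 (25.9%) lay at 10 RPKM or more in both, against 30.4% of all genes and 33.0% of NM_ genes. The median over the 58 was 5.90 ± 0.0479 RPKM (SD, n = 2), and the NM_ genes had medians of 4.31 in uterus 1 and 4.21 in uterus 2. The 47 guidance genes whose mean reached 1 RPKM rested on 16 to 1750 reads in each library, with medians of 134 in uterus 1 and 129 in uterus 2. Within each subfamily the genes were ordered by mean level. In 11 of the 43 steps from a gene to the next lower one the values of the 2 uteri overlapped. Overlap was taken across the libraries, so an overlapping pair could keep its order within each uterus, as Ephb4 and Ephb2 did.

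**Figure D1:**
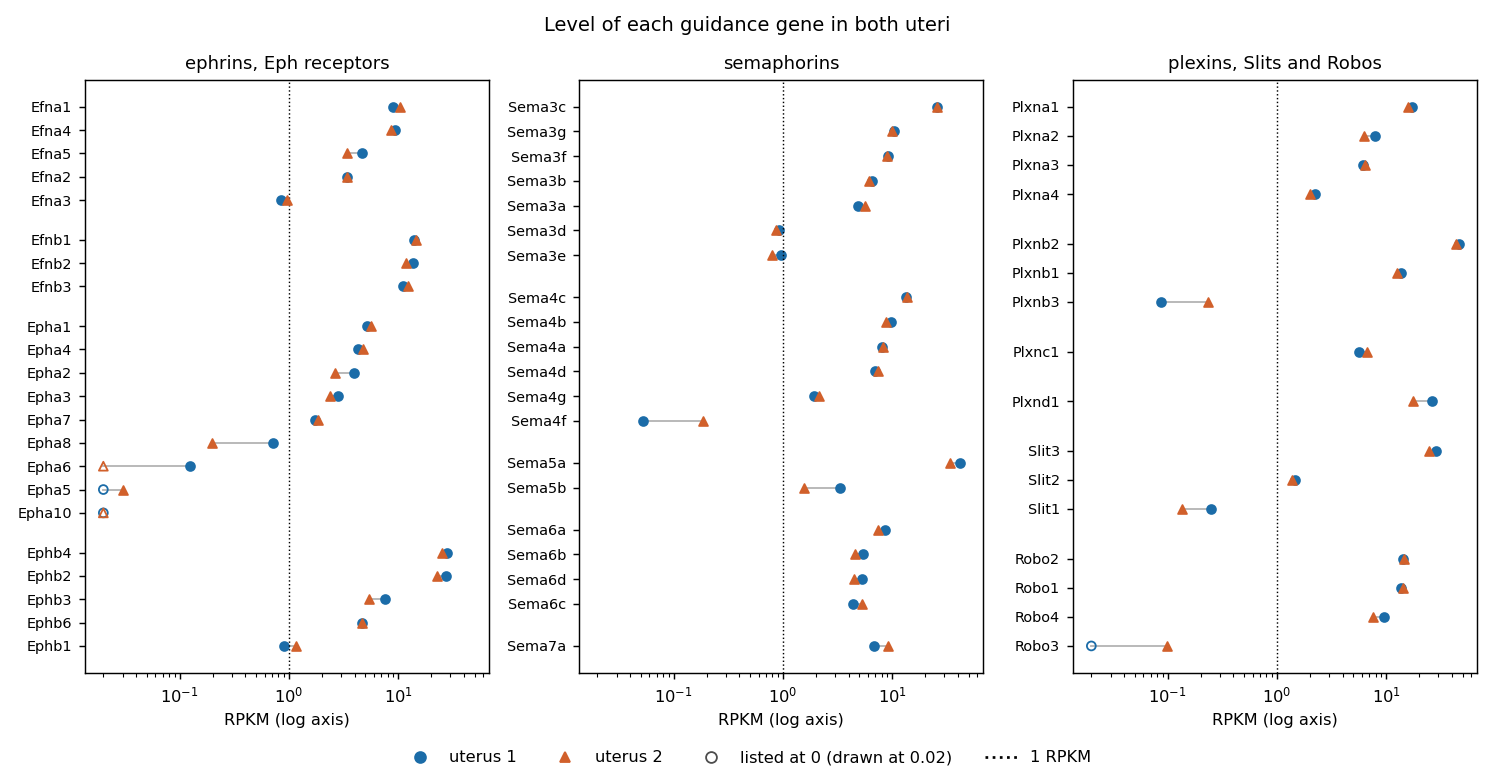
Level of each of the 58 guidance genes in RPKM on a log axis, with a circle for uterus 1 and a triangle for uterus 2, sorted by mean within each subfamily. Open symbols drawn at 0.02 mark genes listed at 0, and the dotted line marks 1 RPKM; 47 genes have a mean at or above it.

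A cluster of ephrin-A genes shows that neighbours can differ in level. Efna1, Efna3 and Efna4 lie in a row on the minus strand of chromosome 3, with 33999 bases between Efna1 and Efna3 and 10513 between Efna3 and Efna4. Efna4 lay at 9.31 RPKM in uterus 1 and 8.69 in uterus 2, and Efna1 at 8.89 and 10.3. Efna3, between them, lay at 0.852 and 0.959 RPKM on 8 and 10 reads. The 200 bases before each deposited transcript start are printed to show how these neighbours differ in sequence as well as in level; they were chosen after the levels were seen, and no link between sequence and level was tested. They were read from NCBIM37, the genome of the deposited coordinates, and run 5′ to 3′ on the minus strand, with each CpG in capitals. Efna4 is read at chr3:89141951-89142150, Efna3 at chr3:89126802-89127001 and Efna1 at chr3:89084874-89085073.
Efna4: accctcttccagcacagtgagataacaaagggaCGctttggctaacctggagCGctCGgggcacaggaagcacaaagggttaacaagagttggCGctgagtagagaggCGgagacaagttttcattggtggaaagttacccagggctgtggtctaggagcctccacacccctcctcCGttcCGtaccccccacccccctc
Efna3: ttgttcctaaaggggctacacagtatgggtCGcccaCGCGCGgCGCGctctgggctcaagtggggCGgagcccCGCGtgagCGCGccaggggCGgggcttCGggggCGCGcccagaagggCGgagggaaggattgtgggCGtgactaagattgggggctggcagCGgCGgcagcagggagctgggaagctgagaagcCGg
Efna1: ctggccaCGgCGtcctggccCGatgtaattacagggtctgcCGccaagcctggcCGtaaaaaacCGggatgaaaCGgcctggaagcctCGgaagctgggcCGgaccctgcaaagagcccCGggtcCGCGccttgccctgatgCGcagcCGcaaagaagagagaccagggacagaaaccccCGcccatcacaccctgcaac
The Efna3 stretch holds 20 CpG at a GC content of 70.5%, the Efna1 stretch 15 at 64.5% and the Efna4 stretch 7 at 57.5%.

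All 58 genes were then split at a mean of 1 RPKM. The 200 bases before the start held a median of 14 CpG in the 47 guidance genes whose mean reached 1 RPKM and of 11 in the 11 genes below it. For other NM_ genes the medians were 14 at 1 RPKM or more (12825 genes) and 2 below it (7494 genes). At least 10 CpG were present for 36 of the 47 guidance genes from 1 RPKM (76.6%), against 67.2% of all NM_ genes at that level. Below it they were present for 6 of 11 (54.5%), against 17.6% of all NM_ genes. Epha8, at a mean of 0.459 RPKM, had 38, the most of any guidance gene, and Epha5, Epha10 and Epha6, at or near 0, had 16, 13 and 13. Plxnb3, with 3, and Sema3d, with 4, were the lowest of the 11. The letters GGGCGG, the core of the Sp1 box, were found on either strand in 32 of the 47 stretches of genes from 1 RPKM (68.1%), against 57.2% of all NM_ genes at that level, and in 8 of the 11 below it (72.7%), against 19.4%. TATAAA, searched likewise, was found in 2 of the 47 (4.26%), against 4.83%, and in 0 of the 11, against 18.1%. CCAAT was found in 10 of the 47 (21.3%), against 31.5%, and in 6 of the 11 (54.5%), against 31.0%. With 11 genes below 1 RPKM each such share rests on few genes. A match describes the letters and not a bound site, and the deposited start may not be the start used in the uterus.

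**Figure D2:**
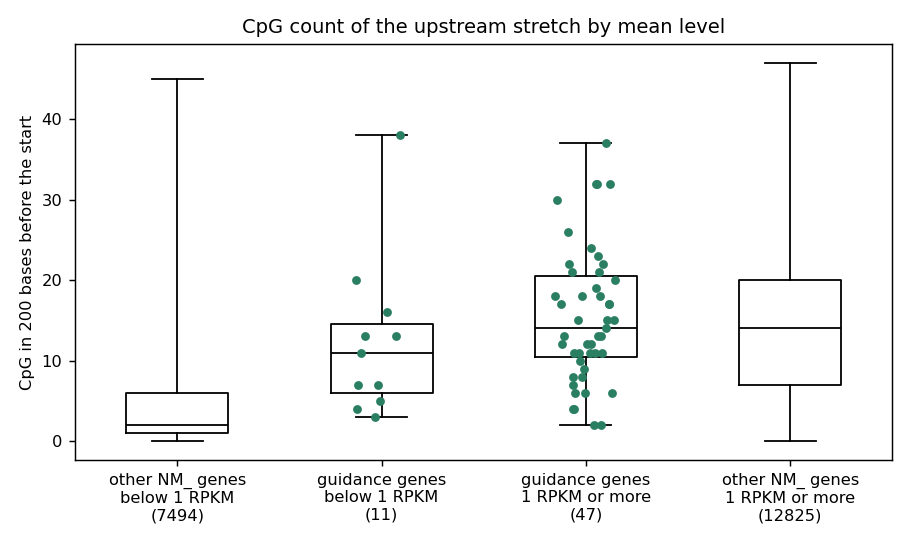
CpG count in the 200 bases before the transcript start, for guidance genes (points and boxes) and other NM_ genes (boxes), split at a mean of 1 RPKM. Boxes span the quartiles with the median as a line and whiskers reach the extremes; the 11 guidance genes below 1 RPKM have a median of 11, and the other NM_ genes below it a median of 2.

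Among the ligands on cell surfaces, all 3 ephrin-B genes lay above 10 RPKM in both uteri and no ephrin-A gene did. Efnb1, an X-linked gene, lay at 14.01 RPKM in uterus 1 and 14.57 in uterus 2. Efnb2, which marks arterial endothelium and is a main ligand of EphB4, lay at 13.6 and 11.8 RPKM. Efnb3 lay at 11.0 and 12.4 RPKM. Efnb1 was above the other ephrin-B genes in both uteri, whereas the values of Efnb2 and Efnb3 overlapped. The summed level of the 3 genes was 38.7 ± 0.0798 RPKM (SD, n = 2).

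The 5 ephrin-A genes summed to 27.0 ± 0.275 RPKM, and 4 of them were at 1 RPKM or more in both uteri. Below the overlapping Efna1 and Efna4 came Efna5, at 4.66 RPKM in uterus 1 and 3.40 in uterus 2. Efna2 lay at 3.43 and 3.42 RPKM, inside the range of Efna5. Efna3 was the lowest, below every other ephrin in both libraries.

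Among the Eph receptors the EphB class carried most of the RNA, 63.8 ± 6.56 RPKM over 5 genes against 18.1 ± 0.943 RPKM over the 9 EphA genes. Ephb4 (NM_010144, chromosome 5, 137791337 to 137815750), the receptor known from venous endothelium, lay at 27.9 RPKM in uterus 1 and 25.1 in uterus 2. Ephb2 (NM_010142, chromosome 4, 136209525 to 136391850) lay at 27.5 and 22.9 RPKM. The values of these 2 genes overlapped, and both stood above the third, Ephb3, at 7.55 and 5.39 RPKM. Ephb2 and Ephb3 are known for sorting cells along the intestinal crypt. Ephb6, whose kinase domain lacks activity, lay at 4.65 and 4.62 RPKM. Ephb1 lay at the detection threshold, with 0.894 RPKM on 16 reads and 1.16 on 23.

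No EphA gene reached 10 RPKM, and 5 of 9 were at 1 RPKM or more in both uteri. Epha1, an epithelial receptor, was highest at 5.18 RPKM in uterus 1 and 5.60 in uterus 2. Epha4, which binds ephrins of either class, lay at 4.25 and 4.79 RPKM. Epha2, also known from epithelia, lay at 3.98 and 2.63 RPKM, and overlapped Epha3 at 2.82 and 2.36. Epha7 lay at 1.74 and 1.86 RPKM. The values did not overlap between Epha1 and Epha4, Epha4 and Epha2, or Epha3 and Epha7, but the 2 uteri differed more in Epha2 than the means of Epha4 and Epha2 did.

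The remaining 4 EphA genes lay below 1 RPKM in both libraries. Epha8 lay at 0.719 RPKM on 13 reads and 0.199 on 4. Epha6 had 2 reads in uterus 1 and was listed at 0 in uterus 2, and Epha5 had 1 read in uterus 2 and was listed at 0 in uterus 1. Epha10 was listed at 0 in both, as were 23.4% of all genes. Epha8 lies 93483 bases from the highly expressed Ephb2 on chromosome 4.

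The 20 semaphorins summed to 170 ± 7.19 RPKM, and 17 of them were at 1 RPKM or more in both uteri. Of the secreted class 3, Sema3c (NM_013657, chromosome 5, 17080634 to 17236085) was highest at 25.9 RPKM in uterus 1 and 25.7 in uterus 2, and held 44.3% of the class's summed level. Sema3g, known from endothelium, lay at 10.3 and 9.88 RPKM. Sema3f, a ligand that acts mainly through neuropilin-2, lay at 9.07 and 8.93 RPKM. These genes differed little between the animals, and no gene's values overlapped those of the next. Sema3b lay at 6.53 and 6.09 RPKM, and Sema3a, the founding axon repellent, at 4.90 and 5.64. Sema3d, at 0.920 and 0.865 RPKM, and Sema3e, at 0.950 and 0.788, overlapped just below the threshold. Sema3a, Sema3c, Sema3d and Sema3e all lie on chromosome 5, where Sema3e separates Sema3a from Sema3c.

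The class 4 semaphorins are membrane proteins, and 5 of 6 were at 1 RPKM or more in both uteri. Sema4c, a ligand of plexin-B2, was highest at 13.3 RPKM in uterus 1 and 13.6 in uterus 2. Sema4b lay at 9.78 and 8.75 RPKM, and Sema4a at 8.02 and 8.31. Sema4d, also called CD100 and a ligand of plexin-B1, lay at 6.91 and 7.41 RPKM. Sema4g was lower at 1.94 and 2.13 RPKM, and Sema4f had 1 read in uterus 1 and 4 in uterus 2. None of the 5 steps in this order overlapped.

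Class 5 semaphorins carry thrombospondin repeats beside the semaphorin domain. Sema5a (NM_009154, chromosome 15, 32174568 to 32626096) was the highest semaphorin at 42.2 RPKM in uterus 1 and 33.7 in uterus 2, on 1750 and 1551 reads. Sema5b (NM_013661, chromosome 16, 35541448 to 35664344) lay at 3.32 and 1.55 RPKM on 58 and 30 reads. Both were lower in uterus 2, and Sema5a made up 94.0% of the class's summed level.

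The class 6 semaphorins, transmembrane ligands of plexin-A receptors, lay close together. Sema6a was highest at 8.55 RPKM in uterus 1 and 7.46 in uterus 2. Sema6b lay at 5.44 and 4.61 RPKM, Sema6d at 5.34 and 4.45, and Sema6c at 4.36 and 5.28, and these 3 overlapped from each to the next. Sema7a, the lipid-anchored semaphorin that binds plexin-C1 and β1 integrins, lay at 6.77 and 9.11 RPKM, the highest ratio of uterus 2 over uterus 1 among the 47 genes. Its receptor gene Plxnc1 lay at 5.67 and 6.70 RPKM.

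The 9 plexins summed to 119 ± 9.84 RPKM, and 8 of them were at 1 RPKM or more in both uteri. Plxnb2 (NM_001159521, chromosome 15, 88985979 to 89004280) was the highest of all 58 guidance genes at 46.5 RPKM in uterus 1 and 44.0 in uterus 2, rank 1307 of 20445 NM_ genes. Plxnb1 lay at 13.6 and 12.6 RPKM. Plxnb3, known as a receptor of Sema5A, had 2 and 6 reads, in contrast with Sema5a itself, and other possible receptors were not compared. Plxnb2 alone held 77.4% of the summed level of the plexin-B class.

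Of the plexin-A receptors, Plxna1 was highest at 17.3 RPKM in uterus 1 and 15.7 in uterus 2. Plxna2 lay at 7.92 and 6.22 RPKM, and overlapped Plxna3 at 6.198 and 6.430. Plxna4 was the lowest at 2.238 and 1.997 RPKM. Plxnd1 (NM_026376, chromosome 6, 115904829 to 115945023), the endothelial receptor of Sema3E, lay at 26.1 and 17.7 RPKM. Its level was therefore high beside that of Sema3e, which was below 1 RPKM in both uteri. Other possible ligands of plexin-D1 were not compared with it.

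Slits and their receptors were unevenly expressed. Slit3 (NM_011412, chromosome 11, 34934958 to 35522009) lay at 28.6 RPKM in uterus 1 and 24.5 in uterus 2 and made up 94.3% of the summed Slit level. Slit2 lay at 1.47 and 1.38 RPKM, and Slit1 had 5 and 3 reads. Introns of Slit2 and Slit3 hold the microRNA hairpins Mir218-1 and Mir218-2, and both hairpins were listed at 0 in the annotated table. A further hairpin, Mir691, lies within Robo2 on the same strand and was listed at 13.4 and 9.04 RPKM on 4 and 3 reads.

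Of the Slit receptors, Robo2 (chromosome 16, 73892551 to 74411157) lay at 14.4 RPKM in uterus 1 and 14.5 in uterus 2. Robo1 (chromosome 16, 72663394 to 73046345) lay at 13.7 and 14.3 RPKM, just below Robo2 with no overlap, a small step for values that rest on 397 to 496 reads. Robo4, the endothelial member, lay at 9.62 and 7.52 RPKM. Robo3, known from neurons whose axons cross the midline, was listed at 0 in uterus 1 and had 2 reads in uterus 2. Robo3 lies 2022 bases from Robo4 on chromosome 9, on the opposite strand.

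**Figure D3:**
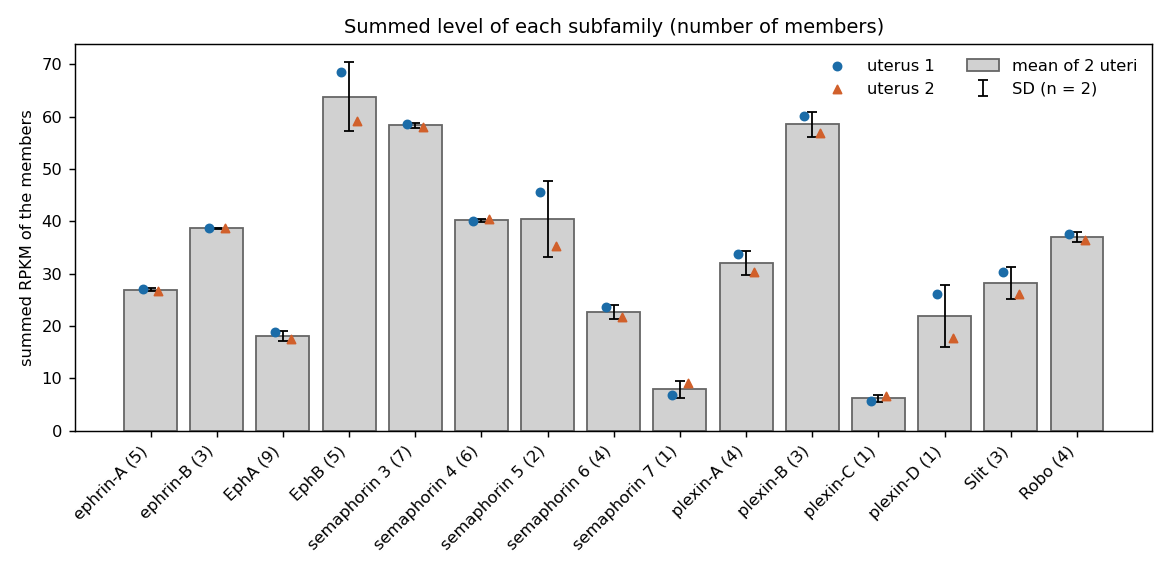
Summed RPKM of the members of each subfamily, with the number of members in brackets; bars give the mean of the 2 uteri, whiskers the SD, and points each uterus. EphB receptors (63.8), plexin-B (58.5) and class 3 semaphorins (58.3) have the highest sums, and the whiskers of EphB, class 5 semaphorins and plexin-D are the widest.

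Related genes outside these families were read from 3 lists. Of 13 co-receptors and other semaphorin receptors, 11 were at 1 RPKM or more in both uteri. Nrp1, the neuropilin that Sema3A uses, lay at 36.7 RPKM in uterus 1 and 34.7 in uterus 2, and Nrp2 at 11.2 and 9.20. Itgb1, the β1 integrin that binds Sema7A, lay at 158 and 163 RPKM. Met, a receptor that pairs with plexin-B1, lay at 8.31 and 8.30 RPKM, and Mst1r at 5.87 and 6.59. Kdr, a VEGF receptor of endothelium, lay at 22.9 and 16.6 RPKM. Also above a mean of 1 RPKM were Tyrobp at a mean of 50.9, Trem2 at 6.35, Cd72 at 6.00, Flt4 at 5.43 and L1cam at 1.60.

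Of the 16 genes of the netrin and draxin system, 9 were at 1 RPKM or more in both uteri. Neo1, the neogenin receptor, was highest at 32.9 RPKM in uterus 1 and 33.8 in uterus 2. Its ligands of the repulsive guidance family, Rgmb and Rgma, had means of 19.4 and 13.5 RPKM. Ntn1 lay at 13.1 and 11.7 RPKM, whereas Dcc, a receptor gene for netrin-1, was at 0.632 and 0.683, and other possible receptors were not compared. Also above that mean were Ntn4 at 6.54, Ntng2 at 5.61, Ntn3 at 3.40, Ntng1 at 2.36, Unc5b at 1.71 and Draxin at 1.00. Of 56 listed signalling partners, 55 were matched by symbol, and 52 were at 1 RPKM or more in both uteri. The 5 highest were genes of general actin control and membrane scaffolding, Cfl1 at a mean of 382 RPKM, Cdc42 at 148, Rhoa at 143, Sdcbp at 117 and Rac1 at 115.

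The last comparison was between the uteri. On the log2 scale after a pseudocount of 0.1 RPKM, which understates the change of low genes, the 47 guidance genes whose mean reached 1 RPKM had a median ratio of -0.08 (uterus 2 over uterus 1), from -1.05 to 0.42. The median over all 13647 genes at that level was 0.00067. The ratio was below 0 for 29 of the 47 (61.7%), against 49.9% of all genes. Guidance transcripts are long and rich in GC, with medians of 4377 bases and 56.5% GC against 2911 bases and 50.3% for NM_ genes at that level. Other NM_ genes within the middle quartiles of the guidance genes for both length and GC (1365 genes) had a median ratio of -0.05, with 57.6% below 0. Their median GC was 52.8%, below that of the guidance genes, so GC was not fully matched. The part of length and GC in the guidance genes' ratio was not tested further.

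Of the 47 genes, 1 was at least 2-fold apart, against 2.60% of all genes: Sema5b, with a log2 ratio of -1.05. Reads recovered for each gene were then set against each other in a two-sided exact binomial test with Benjamini-Hochberg adjustment over 15162 genes, which compares these libraries and not conditions. It called 3 of 53 tested guidance genes, against 4.97% of all genes tested in either direction and 2.69% lower in uterus 2. All 3 were lower in uterus 2, and the share of 5.66% is near that of all genes.

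Plxnd1 had the smallest p of the 3. From 691 and 521 reads, its log2 read ratio was -0.56 (95% interval -0.73 to -0.39), with an exact binomial adjusted p of 3.52e-09. Sema5a had a ratio of -0.33 (-0.43 to -0.23), with an exact binomial adjusted p of 1.51e-08. Sema5b had a ratio of -1.10 (-1.79 to -0.44), with an exact binomial adjusted p of 0.0166, which became 0.191 with the smallest reads that give the 2 values. These intervals cover counting error alone, not the spread between animals. Among all 7781 genes with at least 200 reads in sum and a mean from 1 RPKM, the SD of the log2 ratio was 0.21, 1.5% had a ratio as far from 0 as Plxnd1, and 10.8% as far as Sema5a.

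Plxnd1 and Kdr are both genes of endothelium, and both were lower in uterus 2. For Kdr the log2 ratio was -0.46, with an exact binomial adjusted p of 0.000158. The endothelial marker list as a whole, Kdr included, summed to 229.6 RPKM in uterus 1 and 224.2 in uterus 2. Of its 7 genes, 3 were lower in uterus 2. Kdr, at 22.9 and 16.6 RPKM, fell by more than this sum did. The other genes of the list together were therefore not lower in uterus 2. The level of Tie1 was 17.95 and 14.66 RPKM, that of Pecam1 50.7 and 50.9, and that of Cdh5 44.4 and 46.0. The part of endothelial RNA in the difference of Plxnd1 was not tested. Robo4 had a log2 read ratio of -0.36 (-0.73 to 0.0094), with an exact binomial adjusted p of 0.318.

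Without adjustment, 11 of the 53 genes had a binomial p below 0.05, and 10 of these were lower in uterus 2. Of all genes tested, 16.0% had such a p and 8.26% had it with a lower value in uterus 2, against 20.8% and 18.9% of the guidance genes. Such shares depend on the reads per gene, and all genes tested were not matched to the guidance genes for reads, length or GC. Beside the 3 called genes, the 11 include Plxna2, with an exact binomial adjusted p of 0.0527, and Ephb2, with 0.0827. Slit3 had an adjusted p of 0.143, Ephb3 0.155 and Epha8 0.222 in the same exact test. Epha2, at 0.275, and Efna5, at 0.299, completed those lower in uterus 2; the reads of Efna5, 94 and 76, match no annotated transcript length within 5%, so its place among the 11 is uncertain. Sema7a was the gene on the other side, with a log2 read ratio of 0.43 (0.02 to 0.84) and an exact binomial adjusted p of 0.275. For the genes that were not called, the test does not show that the uteri had equal levels.

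**Figure D4:**
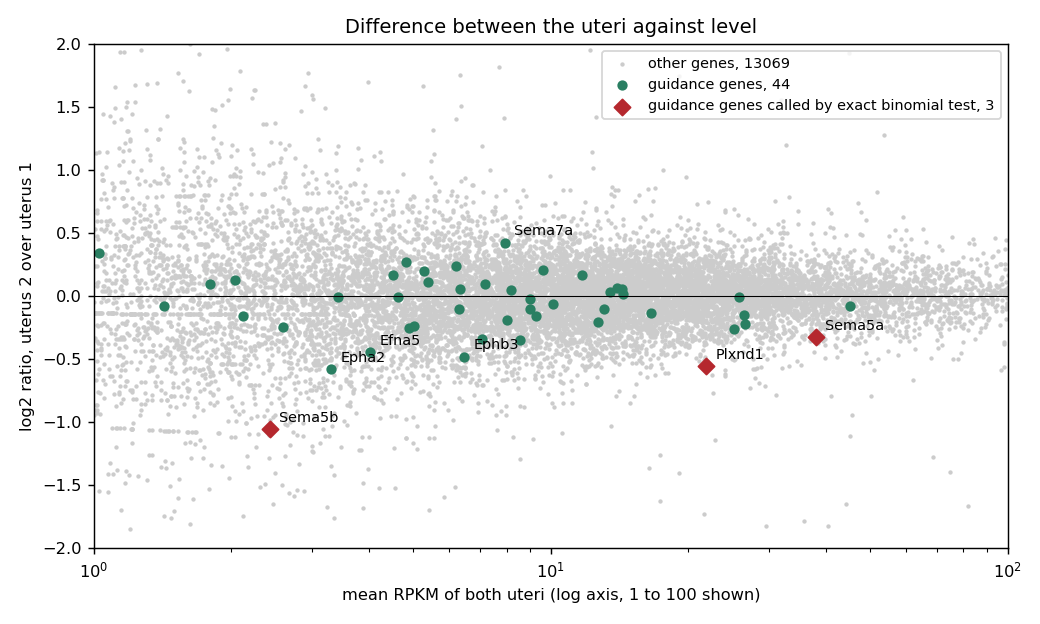
Log2 ratio of uterus 2 over uterus 1 (after 0.1 RPKM was added) against mean RPKM on a log axis, for genes with a mean from 1 to 100 RPKM and a ratio within 2 of 0. Grey points are 13069 other genes, green circles the 44 guidance genes not called and red diamonds the 3 called ones; Plxnd1, Sema5a and Sema5b lie below 0 and most guidance genes lie within the grey cloud.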

How the data were processed

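RNA of whole uterus from 2 mice was extracted with TRIzol, and libraries were made from 1 microgram with the TruSeq RNA kit, per the labels' protocols. The values are RPKM computed by the authors and deposited for 22740 genes; the submitters' processing notes name TopHat, edgeR and mm9, and the gene models, counting tool and strand setting are not given in the sources used here. Both deposited tables held the same RPKM values for these genes. Against GENCODE M1 on NCBIM37 (mm9), the deposited start of 34 of the 58 guidance genes was 1 base before an annotated start and that of 0 was at one, so starts are given counted from 1.

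Reads were recovered from the RPKM values. Low values of single-exon genes rise in equal steps once multiplied by length, and the step, taken as 1 read, gave scaling totals of 3834174 and 4256101. Of the other single-exon values above that of 1 read, 94.9% of 510 and 94.5% of 532 were whole within 0.001 of a read. For other genes the 2 values fix the ratio of reads, and their common factor was set by closeness to the length of annotated transcripts, with a scale of 0.05 in its logarithm; 46 of 57 guidance genes had a length within 5% of one. The reads are therefore estimates. Genes with at least 6 reads in sum entered the exact binomial test at a threshold of 0.05. The 2 libraries are labelled as separate mice, with 1 library each, so no test between groups exists and mean ± SD is over 2 values. The recovery and the test were tested on simulated data.

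The guidance genes and all lists were chosen with earlier results of these data known. Genes were named by rule: all whose mean reached 1 RPKM, those listed at 0, co-receptor and netrin genes above the same level and the 5 highest signalling partners. Other genes below 1 RPKM, Kdr, Tie1, Pecam1, Cdh5 and the printed upstream stretches were chosen after their values were seen. The protein sequences planned for ephrins were not used here. Alternatives were other thresholds, pseudocounts, filters, a TPM scale, either library alone and the smallest possible reads. SciPy 1.17.1, pandas 2.3.3 and numpy 2.4.6 were used.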

Additional observations from a re-analysis of the deposited data

How the results depend on the processing

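The count of 46 guidance genes at 1 RPKM or more stayed between 41 and 50 under the thresholds of 0.5 and 2 RPKM, a mean in place of both libraries, the TPM scale and either library alone. The TPM scale changes the unit and moved the count at 10 or more from 15 to 37 by construction. Leaving out genes listed at 0 moved the median level to 6.49 RPKM, also by construction. The median log2 ratio stayed below 0 under all 5 alternatives run. The count of genes at least 2-fold apart was 0 with a pseudocount of 1 RPKM, 0 at a mean of at least 5 RPKM and 3 with no filter on low values; the last 2 differ in the genes that enter. With the smallest whole reads the exact binomial test called 2 guidance genes (3.87% of all genes), without Sema5b. With at least 20 reads in sum it called 4 (5.71% of all genes), adding Plxna2 at an adjusted p of 0.0473. For means of 2 values, leaving out either library moves a level by less than 1 SD whatever the data. No ratio can be given from 1 library. No paired analysis was possible because the labels hold a single group.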
